A study of Mus musculus with 12 samples.

Results

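The response of wild-type (WT) skin fibroblasts to transforming growth factor-β2 (TGF-β2) was measured over every gene that these cells expressed, so that small changes in abundant genes were described beside the few very large ones. Primary fibroblasts from the abdominal skin of C57BL/6 mice were kept in serum-free medium for 24 h. They were then left without the ligand (WT control, 3 libraries) or stimulated with 10 ng/ml TGF-β2 for 24 h (WT TGF-β2, 3 libraries). Fibroblasts from mice lacking the NADPH oxidase Nox4, treated in the same manner, made up the other 6 of the 12 libraries of the series and were used here only for an interaction test and for an outside measure of expression level. A gene was included where its mean was at least 1 CPM (reads of the gene as a share of all reads counted in the library, scaled to a common total) in either WT group, which held for 11899 of the 21556 genes in the table.

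TGF-β2 is a secreted cytokine that assembles type I and type II serine/threonine kinase receptors, aided by the co-receptor betaglycan (Tgfbr3). The receptors phosphorylate SMAD2 and SMAD3, which bind SMAD4, enter the nucleus and act with other transcription factors, while the inhibitory SMAD7 is itself induced and damps the signal. In skin fibroblasts the pathway is known for raising matrix and contractile proteins and for its part in wound repair and fibrosis. A cell that secretes more protein also depends on ribosome assembly, on the endoplasmic reticulum (ER) and Golgi, and on the supply of lipid for membranes, and these functions were followed here together with the signalling genes.

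The 6 WT libraries held 35118344 to 40757355 counted reads. The first principal component took up 66.8% of the variance and separated control from stimulated libraries, and the second took up 19.7% and spread the libraries within each group, with stimulated replicates 2 and 3 farthest apart. Cell identity was described with marker genes. Summed over 11 fibroblast markers the level was 32593 to 36068 CPM in the control libraries and 25218 to 30890 CPM in the stimulated ones. Most of it came from Col1a1, Col1a2 and Col3a1, and of the 11 none rose and 3 fell. Leukocyte markers summed to 85.8, 49.7 and 224 CPM in control replicates 1 to 3 and to 63.4, 38.8 and 158 CPM in the stimulated replicates. In both groups replicate 3 was the highest, and for each replicate number the sum was lower after stimulation. The T cell marker Cd3e was at 0. None of the 12 tested markers was called by edgeR or DESeq2. With the replicate number as a block in the edgeR fit 4 were lower, and without 1 library at a time 0 to 1. Keratinocyte markers stayed at or under 4.35 CPM in sum, with Dsg3 and Krt1 at 0 and Dsp called higher (2.12). Endothelial markers summed to 16.3 to 26.3 CPM in control and to 12.8 to 18.6 CPM after TGF-β2, with Tek called lower (-2.24). Pericyte and vascular smooth muscle markers summed to 479 to 665 CPM in control and to 653 to 716 CPM after TGF-β2. Of 7 tested, Cspg4 rose (2.25) and Notch3 (-1.99) and Myh11 (-1.08) fell. Skeletal muscle markers summed to 64.1 to 147 CPM in control and to 422 to 942 CPM after TGF-β2, nearly all of it from Acta1, while Myf5 and Myog were at 0. These are bulk libraries, in which fewer cells of a type and less RNA per cell cannot be told apart. The series describes its replicates as biological, but the sample labels do not say that they came from separate cultures or animals, so the p-values measure the spread between these libraries.

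About 1 gene in 4 changed. With edgeR's quasi-likelihood test and a Benjamini-Hochberg adjusted p under 0.05, 3046 genes (25.6%) were called, of which 1576 (13.2%) were higher and 1470 (12.4%) lower after TGF-β2. Most calls were small: 64.1% of them were under 2-fold. The sizes were unequal between directions, with a median log2 fold change of 0.61 among the genes that rose and of -1.0 among those that fell. Thus 77.2% of the genes that rose changed by less than 2-fold, against 735 of the 1470 that fell. At 2-fold or more, 360 genes (3.03%) were higher and 735 (6.18%) lower. At 4-fold or more the counts were 111 and 204, and at 8-fold or more 38 and 72. Over all tested genes the median log2 fold change was 0.02, with quartiles at -0.30 and 0.28. In 5433 genes (45.7%) every stimulated library lay on one side of every control library, and these included 3035 of the 3046 that were called.

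The balance between directions depended on how the libraries were scaled. Genes that rose made up 51.7% of calls with TMM scaling, 37.9% with upper-quartile scaling (1062 higher, 1737 lower) and 36.3% with library totals alone (972 higher, 1703 lower). RLE scaling gave 47% (1371 higher, 1547 lower) and DESeq2 49.4%. On the log2 scale the median over all genes moved from 0.02 to -0.05 with upper-quartile scaling and to -0.07 with library totals. The larger changes moved less, with 313 genes higher and 860 lower by 2-fold or more under library totals.

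**Figure D1:**
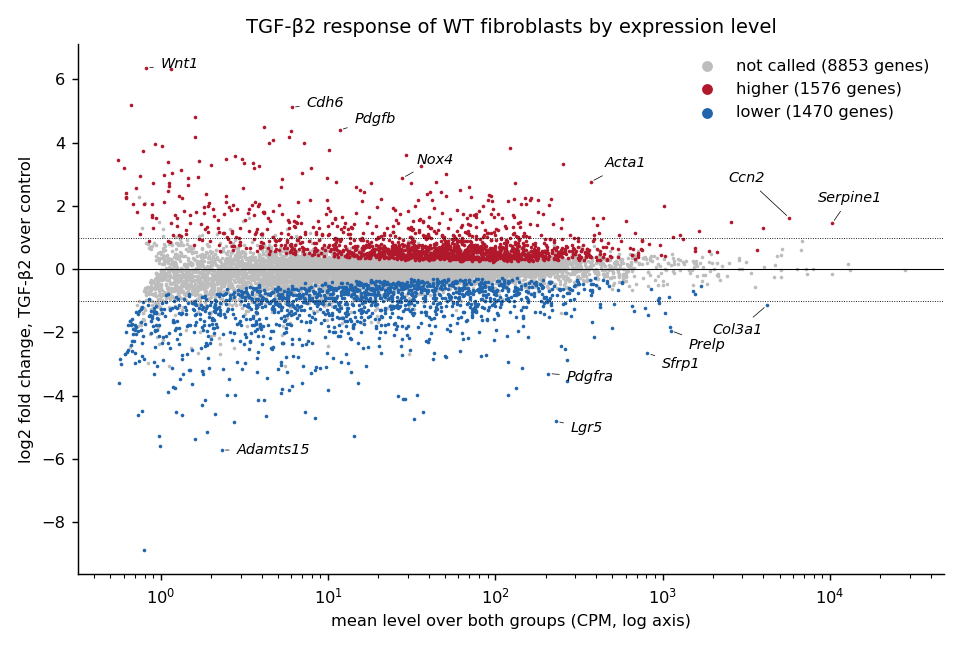
Each point is 1 of the 11899 genes, with its mean level over the 6 libraries in CPM (log axis) against its log2 fold change, stimulated over control; genes called higher (1576) and lower (1470) are coloured. The widest changes lie at low level and mostly point down, whereas called genes at high level sit in a narrow band on both sides of 0.

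Effect size was then read against expression level. Genes were split into quintiles by their mean CPM, from the lowest (0.552 to 6.35 CPM) to the highest (84.4 to 28117 CPM). The share that was called varied little, at 27.3, 21.5, 23.4, 25.3 and 30.5% from lowest to highest. Its direction did not stay the same. Genes that rose made up 7.9% of the lowest quintile and 20.4% of the highest, while genes that fell made up 19.4% of the lowest and 10.1% of the highest. The median absolute log2 fold change of called genes declined from 1.42 in the lowest quintile to 0.86 in the second and 0.61 in the highest. Only 26% of calls in the lowest quintile were under 2-fold, against 78.7% in the highest.

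Precision moved along the same axis. The median standard error of the log2 fold change was 0.25 in the lowest quintile and 0.12 in the highest, and the smallest change called was 0.49 and 0.24. The gene filter bears on the low end as well, since 430 genes passed through the control group alone, of which 214 were called lower, and 133 passed through the stimulated group alone, of which 80 were called higher. When genes were ranked instead by their level in the 6 Nox4 KO libraries, which took no part in the WT fit, 27.3% of the lowest and 30% of the highest quintile were called. Ranking by length-corrected level (RPKM) gave 6.72% higher in the lowest quintile and 23.2% in the highest. The excess of falls at low level held under the other scalings, with 6.51% higher and 21.8% lower under upper-quartile scaling. The excess of rises at high level depended on the scaling. The highest quintile held 17.5% higher and 10.7% lower with RLE scaling, and 25.3 and 13.9% with DESeq2. With upper-quartile scaling it held 13.1 and 12.3%, and with library totals 12.5 and 12.7%.

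**Figure D2:**
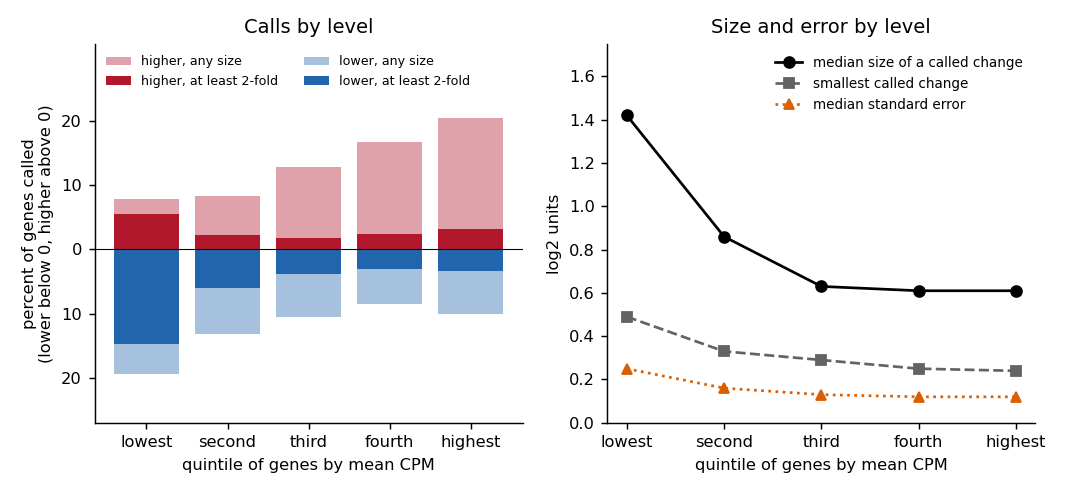
Percent of genes called higher and lower in each quintile of mean CPM, with the median size of called changes and the median standard error on the log2 scale. The called share runs from 21.5 to 30.5% across quintiles, while the size of called changes falls from 1.42 to 0.61 and the standard error from 0.25 to 0.12.

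The shift was also read as a share of all reads, in which abundant genes weigh most. Summed over tested genes, the mean CPM gained came to 124501 and the CPM lost to 124337. The 15 called genes with the largest gain held 23.4% of the gain, and the 15 with the largest loss held 12.4% of the loss. Ccn2, which encodes connective tissue growth factor, was at 3304, 3405 and 2091 CPM in control and at 7898, 9034 and 8558 CPM after stimulation (1.62 ± 0.23 SE, adjusted p = 0.00466). Every stimulated library lay above every control library, and control replicate 3 was the lowest of the 6.

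Other large gains included matrix and adhesion genes. Ltbp2, a microfibril-associated protein of the latent TGF-β binding family, went from 2363, 2583 and 2198 to 5891, 4215 and 6495 CPM. Itga5, the fibronectin-binding integrin subunit α5, went from 1494, 1724 and 972 to 3807, 3404 and 3875 CPM. Timp1, Mmp14 and Loxl2, which encode a metalloproteinase inhibitor, a membrane metalloproteinase and a collagen cross-linking enzyme, rose by 1.21, 0.97 and 1.03 on the log2 scale. Pmepa1, a membrane protein that restrains SMAD signalling, was at 327, 319 and 326 CPM in control and at 839, 900 and 887 CPM after stimulation, with a spread far smaller than the change. Also among the 15 were Inhba (activin A), Ptgs2 (cyclooxygenase-2), the ER proteins P4hb and Hspa5, the membrane-cytoskeleton linker Msn, the skeletal actin gene Acta1 and the tropomyosin gene Tpm1. Tpm1 passed narrowly (adjusted p = 0.0477).

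The largest losses included matrix genes too. Col3a1, the collagen III chain, was at 5973, 4664 and 7055 CPM in control and at 3132, 2079 and 2311 CPM after TGF-β2 (-1.14 ± 0.23 SE, adjusted p = 0.0146). Prelp, a small leucine-rich proteoglycan, went from 1808, 1651 and 1932 to 470, 470 and 377 CPM. Cemip, which takes part in hyaluronan breakdown, went from 1684, 1912 and 1685 to 504, 374 and 504 CPM. For all 3 genes the groups did not overlap. Sfrp1, a secreted Wnt antagonist, fell from 1134, 1172 and 1931 to 190, 219 and 217 CPM, the largest fold among the 15. The collagen VI genes Col6a1 and Col6a2 fell by 1.39 and 1.23 on the log2 scale, the nidogen gene Nid1 by 0.87 and the metalloproteinase inhibitor gene Timp2 by 0.68. The matricellular gene Ccn5 fell by 1.07, the receptor tyrosine kinase ligand gene Gas6 by 0.79, the peptidase gene Scpep1 by 1.45, the ubiquitin ligase gene Nedd4 by 0.52, the spectrin gene Sptbn1 by 0.96 and the guidance ligand gene Slit3 by 0.91. S100a4, often used as a fibroblast marker, fell from 995, 1087 and 841 to 265, 618 and 229 CPM, with stimulated replicate 2 well above the other two.

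**Figure D3:**
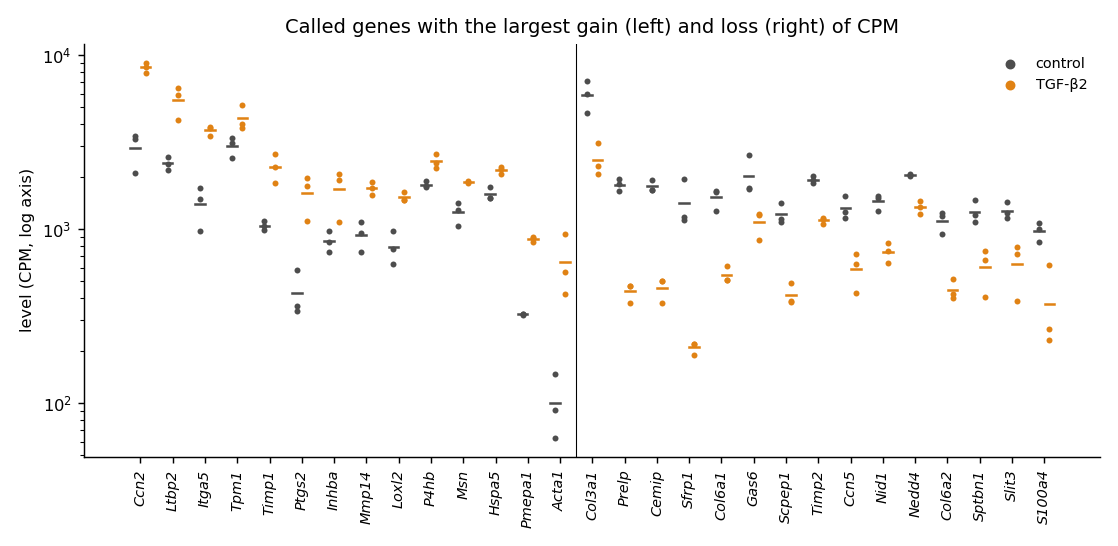
CPM of each library (log axis) for 14 of the 15 called genes that gained most CPM and the 15 that lost most, controls and stimulated libraries in separate colours with bars at the group means. Ccn2 moves from 2091 to 3405 CPM in control to 7898 to 9034 CPM, and Sfrp1 from 1134 to 1931 CPM to 190 to 219 CPM.

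Genes of the TGF-β pathway itself moved in both directions. Of 13 tested ligand and latency genes, 4 rose (30.8%) and 3 fell (23.1%), against 13.2 and 12.4% of all genes. Tgfb1 was at 55.6, 47.3 and 33.0 CPM in control and at 228, 205 and 143 CPM after stimulation (2.17 ± 0.26 SE, adjusted p = 0.00265). Tgfb2 and Tgfb3 were not called, with log2 fold changes of 0.01 and 0.04. Among 12 receptors and co-receptors 1 rose and 3 fell. Tgfbr3 went from 259, 233 and 292 to 29.8, 21.7 and 32.9 CPM, while Tgfbr1 (0.08) and Tgfbr2 (-0.58, adjusted p = 0.0536) were not called by edgeR. Tgfbr2 sat at the threshold: it stayed uncalled in 7 of 17 alternatives and was lower in the others, DESeq2 and 3 other scalings among them, with an adjusted p between 0.00715 and 0.129. Acvr1, a type I receptor shared by bone morphogenetic proteins (BMPs) and activins, rose from 97.5, 98.0 and 103 to 187, 196 and 194 CPM.

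Among 18 SMAD proteins and feedback regulators, 6 rose (33.3%) and 4 fell (22.2%), against 13.2 and 12.4% of all genes. Without 1 library at a time 3 to 7 rose and 2 to 4 fell. The inhibitor Smad7 rose from 85.3, 107 and 95.9 to 146, 177 and 172 CPM. Smad6, which inhibits BMP signalling, fell by 1.16 on the log2 scale, and the BMP effector Smad9 by 1.64. The TGF-β effector Smad3 fell from 93.4, 100 and 114 to 49.7, 45.0 and 47.3 CPM. Id4 and Id2, helix-loop-helix inhibitors that BMPs induce in many cells, fell by 2.76 and 1.79. Of 20 genes listed as direct targets of TGF-β or of the mechanosensitive co-activators YAP and TAZ, 9 rose and 1, Amotl2, fell (-0.42), with a median of 0.32. The hydrogen peroxide-producing oxidase gene Nox4 was in this list, at 6.01, 5.32 and 9.87 CPM in control and 44.4, 34.8 and 66.4 CPM after stimulation (2.88 ± 0.32 SE, adjusted p = 0.0021).

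Contractile genes were called about as often as genes in general. Of 20 smooth muscle contractile genes 3 rose (15%), 3 fell (15%) and 14 were not called by edgeR, against 13.2 and 12.4% of all genes, with a median of 0.07. Acta2, which encodes α-smooth muscle actin, was at 13211, 13055 and 11124 CPM in control and at 11187, 17246 and 11489 CPM after TGF-β2, so that only stimulated replicate 2 stood above the controls. Tagln (0.61, adjusted p = 0.0517), Cnn1 (0.32), Col1a1 (-0.03), Col1a2 (-0.16), Fn1 (-0.15) and Postn (-0.03) were not called by edgeR either. Tagln passed in 5 of 17 alternatives, DESeq2 and the replicate block among them, with an adjusted p between 0.00279 and 0.16 over the 17. Csrp2, a LIM-domain protein of smooth muscle, rose from 40.6, 35.1 and 28.1 to 95.8, 133 and 75.8 CPM. Myh11, smooth muscle myosin, and Mylk, its kinase, fell by 1.08 and 0.87 on the log2 scale. Eln, the elastin gene, rose from 47.6, 37.0 and 94.3 to 215, 231 and 352 CPM.

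Collagens and other matrix families were not raised together. Among 13 fibrillar and associated collagens 2 rose (15.4%) and 3 fell (23.1%), against 13.2 and 12.4% of all genes. Without 1 library at a time 1 to 3 rose. Col5a3 and Col11a1 were higher by 2.02 and 1.29, whereas Col24a1, at 11.4, 9.94 and 11.8 CPM in control and 0.785, 0.742 and 0.672 CPM after stimulation, was lower by 3.81. Col24a1 passed the filter through the control group alone. Col7a1, the anchoring fibril collagen, rose from 67.7, 76.7 and 40.1 to 353, 182 and 250 CPM. None of 19 basement membrane genes rose and 8 fell (median -0.54), led by Nid2, which went from 158, 157 and 117 to 22, 20.2 and 19.2 CPM. Of 26 genes for collagen folding, secretion and cross-linking 11 rose and 2 fell, with a median of 0.39. Without control replicate 1, 2 or 3 or stimulated replicate 1 the rises numbered 4 to 6. Leaving out control replicate 1 or 2 took the basement membrane genes that fell to 4 and 5.

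The most uniform rise among the lists was in ribosome assembly, to be read against the 13.2% of all genes that rose and the 12.4% that fell. Of 33 tested genes for ribosome biogenesis and RNA polymerase I, which makes the precursor of ribosomal RNA, 25 rose, none fell and all 33 had a log2 fold change above 0 (median 0.61). Only 1 of the 25 reached 2-fold. Rrp9, a component of the small nucleolar U3 particle, was at 38.7, 41.0 and 39.6 CPM in control and at 70.5, 90.9 and 63.9 CPM after TGF-β2 (1.0 ± 0.13 SE, adjusted p = 0.00341). Nhp2, of the pseudouridylation particles, and Rcl1, of 18S rRNA processing, rose by 0.84 and 0.76. The median member lay between 0.56 and 0.62 above the control mean in each stimulated library, and within 0.03 of it in each control library. With library totals 21 of the 33 still rose, and without 1 library at a time 16 to 30, with 16 without control replicate 1 or 3.

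Genes of the secretory pathway rose by smaller amounts. Of 34 ER-to-Golgi genes 18 rose and none fell (median 0.36), and the median member stood 0.36, 0.34 and 0.32 above the control mean in the 3 stimulated libraries. Sec61a1, the channel through which new proteins enter the ER, went from 423, 403 and 377 to 620, 630 and 536 CPM. Ssr2, of the translocon-associated complex, and Tmed2, a cargo receptor of transport vesicles, rose by 0.82 and 0.64. Of 27 genes for ER folding and the unfolded protein response 14 rose and 1 fell (median 0.37). Creb3l2, an ER-anchored transcription factor of secretory cells, rose from 150, 149 and 153 to 363, 272 and 400 CPM, and the gene that fell was Crebrf (-1.31), a regulator of the same factor family. These counts depended on the libraries: without 1 library at a time 3 to 25 ER-to-Golgi genes and 3 to 17 ER folding genes rose, fewest without control replicates 1 to 3 or stimulated replicate 1, and with library totals 8 and 9.

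Other parts of protein synthesis and turnover moved by amounts near the limit of detection. Of 17 aminoacyl-tRNA synthetases, which charge tRNAs, 10 rose (median 0.32), with Tars going from 209, 212 and 201 to 265, 273 and 261 CPM. Of 26 heat shock proteins and chaperones 12 rose and 1 fell (median 0.31), and of 36 proteasome subunits 10 rose (median 0.34). Hspd1, the mitochondrial chaperonin, went from 161, 160 and 170 to 219, 229 and 225 CPM, and the proteasome subunit gene Psmb2 from 103, 104 and 99.6 to 149, 223 and 141 CPM. With library totals 1 synthetase, 1 chaperone and 3 proteasome genes rose. Without 1 library at a time 0 to 8 synthetases, 1 to 10 chaperones and 1 to 14 proteasome genes rose, with 2 or fewer of each without control replicate 1, 2 or 3 or stimulated replicate 1.

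Cytosolic ribosomal protein genes were called higher about as often as genes in general, and all lay on one side of 0. Among 75 genes for cytosolic ribosomal proteins 10 rose (13.3%, against 13.2% of all genes), none fell and all 75 lay above 0 (median 0.38). Their median member stood 0.24, 0.66 and 0.13 above the control mean in stimulated replicates 1, 2 and 3, so that replicate 2 stood highest. Among 77 mitochondrial ribosomal proteins 19 rose (24.7%) and none fell (median 0.38). For 72 nuclear-encoded respiratory chain subunits, of which 5 rose (6.94%), the libraries overlapped: the median member was at 0.12, 0.63 and 0.01 in the stimulated and at 0.04, 0.01 and -0.05 in the control libraries. With library totals 2, 7 and none of the genes in these 3 lists rose. Without control replicate 1, 2 or 3 the counts were 2, 4 and none. Many ribosomal protein genes share sequence with pseudogenes and reads mapping to several places were discarded, so their counts are uncertain.

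**Figure D4:**
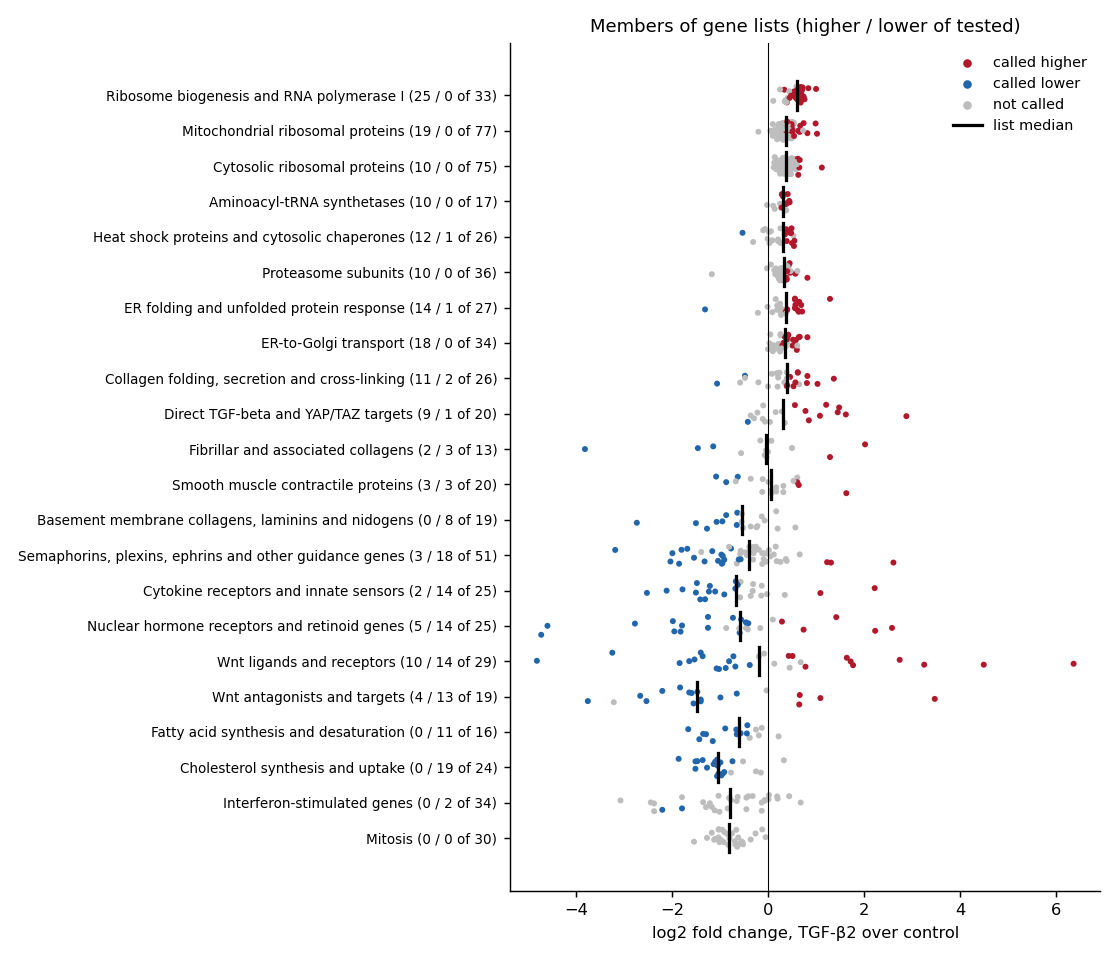
Log2 fold change of every tested member of 22 gene lists, called genes coloured, with the median of each list marked. Ribosome biogenesis lies wholly above 0 (median 0.61) and nearly all cholesterol genes lie below it (median -1.04).

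The list with the largest share of falls was cholesterol synthesis. All 24 genes of the list were tested; 19 fell, 14 of them by 2-fold or more, and none rose (median -1.04). Lss, the enzyme that closes the sterol ring, was at 94.4, 97.9 and 86.8 CPM in control and at 28.7, 37.6 and 26 CPM after TGF-β2 (-1.51 ± 0.14 SE, adjusted p = 0.00119). Hsd17b7, a sterol ketone reductase of the same route, went from 104, 115 and 109 to 35.9, 37.8 and 34.3 CPM. Idi1, the isopentenyl diphosphate isomerase, fell by 1.86 from a level of only 1.51 to 2.26 CPM, and passed the filter through the control group alone. Among the 5 genes that were not called, and named after their values were seen, were the kinase Mvk (-0.77) and the isomerase Ebp (0.33). Stimulated replicate 2 was the least lowered, with the median member at -1.1, -0.64 and -1.4 in replicates 1, 2 and 3. Without 1 library at a time 13 to 20 of the genes fell.

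Fatty acid synthesis genes were lower too. Of 16 genes 11 fell and none rose (median -0.61). Without 1 library at a time 5 to 10 fell, with 7 or fewer without control replicate 1 or 2 or stimulated replicate 1 or 3. The median member was at -0.52, -0.66 and -0.60 in the 3 stimulated libraries. Acss2, which makes acetyl-CoA from acetate, went from 22.4, 23.1 and 26.4 to 5.74, 8.59 and 7.15 CPM. The elongase Elovl6 and the desaturase Scd1 fell by 1.43 and 1.35. Fatty acid oxidation did not show this, with 2 of 20 genes lower and a median of -0.07. Of 20 glycolysis genes 3 rose (15%) and none fell, and of 25 TCA cycle genes 3 rose (12%) and 2 fell (8%). Of all genes 13.2% rose and 12.4% fell. Without 1 library at a time 0 to 3 glycolysis genes and 1 to 4 TCA cycle genes rose.

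**Figure D5:**
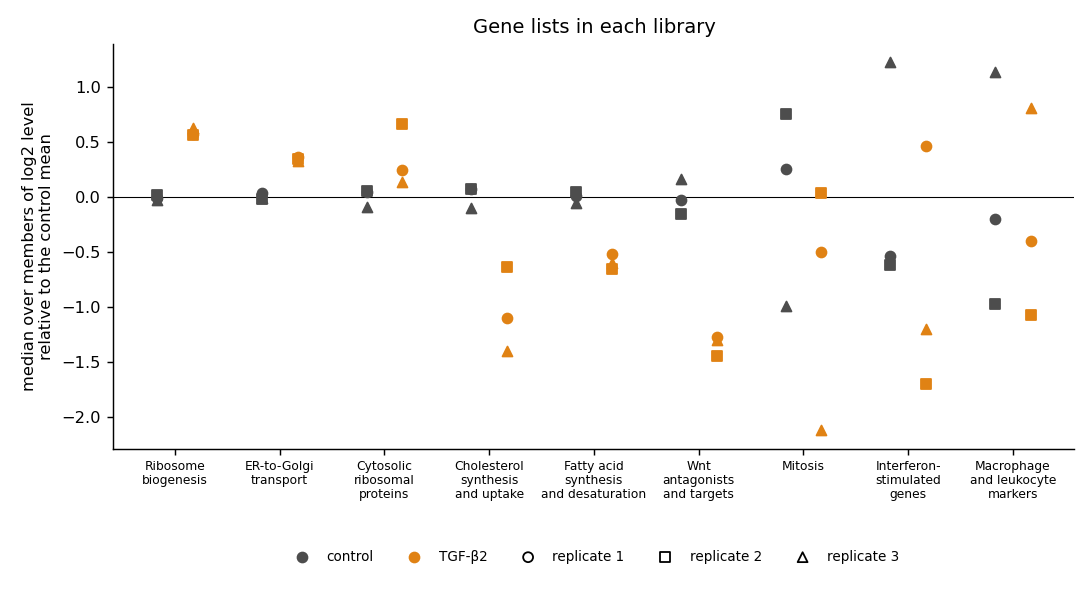
For 9 gene lists, the median member's log2 level in each library relative to the control mean (TMM-scaled CPM plus 0.5), controls and stimulated libraries in separate colours. Ribosome biogenesis and fatty acid synthesis are tight across the 3 stimulated libraries, cytosolic ribosomal proteins are led by replicate 2 (0.66), and mitosis genes spread from -2.12 to 0.75 over both groups.

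Promoters of the lists that moved most evenly were compared. RefSeq promoters (GRCm38.p6, 250 bases before to 50 after the start) matched 9257 of the 11899 genes (77.8%), and motifs were counted on both strands. CCAAT, the letters bound by NF-Y, was in 38.4% of all promoters, in 34.2% of those of genes that rose and in 38.8% of those of genes that fell. It was in 14 of 16 cholesterol promoters (87.5%) and in 18 of 21 ER folding promoters (85.7%), which are lists that moved in opposite directions. The ER stress element was taken as CCAAT and CCACG with 9 bases between them, so that it always holds the CCAAT motif. It was found in 13 promoters of 9257 (0.14%), and 8 of these belonged to the ER folding list. This element and the sterol element TCACNCCAC (1.02% of all promoters, 1 of 16 in the cholesterol list) were added after the values were known. The 200 bases before the start are shown for the 3 called cholesterol genes with CCAAT there that changed most among those whose start matched the annotation, reading 5′ to 3′ along the gene, with CCAAT or its reverse complement in capitals. The windows are chr10:76531405-76531604 (+) for Lss, chr8:122443423-122443622 (-) for Mvd and chr19:6067851-6068050 (-) for Tm7sf2.
Lss: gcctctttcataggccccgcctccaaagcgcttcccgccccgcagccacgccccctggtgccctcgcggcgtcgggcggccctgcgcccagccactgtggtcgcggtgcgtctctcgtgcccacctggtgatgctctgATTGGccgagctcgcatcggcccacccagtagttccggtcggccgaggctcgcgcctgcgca
Mvd: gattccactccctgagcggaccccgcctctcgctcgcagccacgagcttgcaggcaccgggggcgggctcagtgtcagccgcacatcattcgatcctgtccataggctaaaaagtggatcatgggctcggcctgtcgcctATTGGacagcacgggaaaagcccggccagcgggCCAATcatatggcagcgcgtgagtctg
Tm7sf2: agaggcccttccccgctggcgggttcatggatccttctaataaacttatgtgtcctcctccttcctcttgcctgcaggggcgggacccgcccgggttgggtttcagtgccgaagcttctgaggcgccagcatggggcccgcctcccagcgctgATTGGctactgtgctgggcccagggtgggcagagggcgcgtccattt

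The motif began 62 bases before the start in Lss and 47 before it in Tm7sf2, and in Mvd it occurred at 60 and at 27 bases before the start. Mvd, which completes the mevalonate steps, was at 43.0, 41.5 and 39.9 CPM in control and at 15.8, 27.5 and 11.7 CPM after stimulation. Tm7sf2, a sterol reductase, went from 16, 14.7 and 16.5 to 6.06, 10.9 and 4.38 CPM. Neither gene's groups overlapped, and in both stimulated replicate 2 was the highest of its group.

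The ER stress element is shown in the same way, and by the same choice, for genes of ER folding that rose, with its paired parts in capitals. The TEAD motif GGAATG, which reads CATTCC on the strand shown, is in capitals for Ccn1. The windows are chr15:88819446-88819645 (+) for Creld2, chr2:34771890-34772089 (+) for Hspa5, chr19:6046376-6046575 (+) for Syvn1 and chr3:145649986-145650185 (-) for Ccn1.
Creld2: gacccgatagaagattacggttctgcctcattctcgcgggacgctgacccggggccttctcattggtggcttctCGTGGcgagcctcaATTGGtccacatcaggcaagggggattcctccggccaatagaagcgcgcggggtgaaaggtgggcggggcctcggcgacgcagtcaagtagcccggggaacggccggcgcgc
Hspa5: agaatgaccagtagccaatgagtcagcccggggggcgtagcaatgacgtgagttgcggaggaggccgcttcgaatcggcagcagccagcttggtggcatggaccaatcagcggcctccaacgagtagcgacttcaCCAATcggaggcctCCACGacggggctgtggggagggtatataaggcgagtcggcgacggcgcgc
Syvn1: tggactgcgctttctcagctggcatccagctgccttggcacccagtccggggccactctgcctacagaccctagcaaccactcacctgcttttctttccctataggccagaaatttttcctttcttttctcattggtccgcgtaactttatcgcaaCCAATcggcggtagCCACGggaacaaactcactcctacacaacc
Ccn1: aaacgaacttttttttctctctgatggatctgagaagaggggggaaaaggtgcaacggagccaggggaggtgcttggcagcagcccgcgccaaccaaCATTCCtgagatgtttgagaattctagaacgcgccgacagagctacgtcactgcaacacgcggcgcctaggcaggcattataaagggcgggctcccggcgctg

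Creld2, an ER stress-inducible chaperone, went from 57.5, 59.7 and 63.1 to 81.5, 104 and 78.5 CPM. Hspa5, the main ER chaperone BiP, went from 1505, 1501 and 1750 to 2065, 2288 and 2218 CPM. Syvn1, a ubiquitin ligase of ER-associated degradation, went from 95.3, 106 and 115 to 125, 134 and 130 CPM. These 3 were chosen among called genes, and rose by 0.64, 0.56 and 0.39 with no overlap between groups. Of the 8 ER folding genes with the element, Canx, Calr, Hsp90b1, Dnajc3 and Pdia6 (0.09 to 0.37) were not called. GGAATG was in 11.7% of all promoters and in 9 of 16 of the direct TGF-β and YAP/TAZ targets (56.2%), a list made of genes known as targets of TEAD's co-activators. Ccn1, a matricellular protein of that list, went from 1330, 1391 and 1198 to 1689, 1996 and 1758 CPM. It was chosen among called genes. Of the 9 with the motif, Ccn1, Ajuba and Ankrd1 rose and Amotl2 fell. Lats2, Crim1, Yap1, Wwtr1 and Axl were not called. The E-box CACGTG was in 10.4% of all promoters, in 13.6% of those that rose, in 9.01% of those that fell and in 6 of 29 of ribosome biogenesis (20.7%). The other motifs searched were rarer: the AP-1 motif TGANTCA was in 4.54% of all promoters, 4.38% of those that rose and 5.33% of those that fell, and the E2F motif TTTCCCGC in 2.24, 2.07 and 0.919%. The SMAD palindrome GTCTAGAC was in 0.238, 0.248 and 0.276%, and the CArG box of serum response factor in 1.23, 1.57 and 1.01%. Each match is a description of letters in the window and no test was made of it.

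Wnt genes were among the most often called. Of 29 ligands and receptors 10 rose and 14 fell (8 without stimulated replicate 1), and of 19 antagonists and targets 4 rose and 13 fell (median -1.47). Wnt10b and Wnt9a, both ligands, went from 0.313, 0.420 and 0.372 to 7.68, 7.79 and 8.14 CPM and from 7.43, 5.98 and 8.18 to 65.7, 56.5 and 70.5 CPM. Wnt1 was counted at 0, 1 and 1 reads in the control and at 50, 59 and 77 reads in the stimulated libraries. Lef1, a transcription factor that carries Wnt signals and is itself a Wnt target, rose from 0.513, 0.629 and 0.446 to 4.88, 6.28 and 5.51 CPM. Wnt10b, Wnt1 and Lef1 passed the filter through the stimulated group alone, so the filter favoured a rise in them. The R-spondin receptor gene Lgr5 fell from 315, 279 and 748 to 8.56, 8.70 and 27.3 CPM. The antagonists Notum and Frzb fell by 3.75 and 2.53. The count of antagonists and targets that fell was 12 to 13 without 1 library at a time.

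Listed receptors and sensors of inflammatory signals fell more often than they rose. Of 25 cytokine receptors and innate sensors 14 fell (56%) and 2 rose (8%; median -0.67). Of all genes 12.4% fell and 13.2% rose. Il1r1, the interleukin-1 receptor, went from 183, 148 and 247 to 36.7, 34.1 and 54.9 CPM, and the flagellin receptor gene Tlr5 fell by 2.52. The 2 that rose were Tnfrsf11b (osteoprotegerin, 2.22) and Tnfrsf12a (the TWEAK receptor, 1.09). Not all such receptors were in the list. The receptor gene Cd40, outside it, rose by 4.10, and of 14 tested genes named Tnfrsf 5 rose and 3 fell. Of 22 complement genes 7 fell and none rose, but the groups overlapped: the median member was at -0.10, -0.33 and 0.41 in control replicates 1 to 3 and at -0.67, -0.82 and -0.04 after stimulation. Replicate 3 was the highest of each group, as it was for the leukocyte markers, whose part in the result was not tested, and the list median ran from -0.87 to -0.12 without 1 library at a time. Among 14 chemokines that passed the filter, of 38 listed, 2 rose and 5 fell. Cxcl5 fell from 22.1, 23.8 and 38.1 to 0.442, 0.875 and 0.725 CPM, and Ccl17 rose from 1.11, 0.629 and 0.223 to 10.3, 15.8 and 7.09 CPM. Cxcl5 passed the filter through the control group alone and Ccl17 through the stimulated group alone. Of 17 interleukin-6 family and other cytokines 4 rose and 6 fell, with Il11 going from 16.3, 19.6 and 14.7 to 219, 194 and 264 CPM.

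Growth factor genes moved in both directions within families. Of 22 PDGF and VEGF ligands and receptors 9 rose (40.9%) and 6 fell (27.3%), against 13.2 and 12.4% of all genes. Pdgfb rose from 0.655, 1.31 and 1.39 to 21, 20.4 and 25.7 CPM, while Pdgfra, the receptor that marks many fibroblasts, fell from 354, 309 and 476 to 37.4, 26.8 and 44.1 CPM. Of 20 EGF, FGF and HGF genes 3 rose (15%) and 6 fell (30%). Hbegf went from 53, 59.7 and 31.5 to 461, 461 and 453 CPM, and Fgf10 from 39.5, 55.3 and 53.6 to 1.45, 3.74 and 3.47 CPM. None of 17 genes of the IGF system rose and 5 fell, among them Stc1 (-3.05) and Igfbp5 (-2.01).

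Regulators of hormone and second messenger signalling fell more often than they rose. Of 25 nuclear receptors and retinoid genes 14 fell and 5 rose (median -0.59). The deiodinases Dio3 and Dio2, which inactivate and activate thyroid hormone, fell by 4.72 and 4.59. Aldh1a3, which makes retinoic acid, rose from 79.1, 79.7 and 80.2 to 414, 329 and 309 CPM, while Cyp26b1, which degrades it, fell from 106, 66.9 and 95.8 to 13.2, 8.43 and 15.1 CPM. Of 23 phosphodiesterases and adenylyl cyclases 9 fell and 1, Adcy7 (1.71), rose. The cAMP phosphodiesterases Pde4b and Pde8b fell by 2.42 and 2.21. Of 118 potassium and calcium channel genes 35 passed the filter, of which 15 fell and 4 rose (median -0.72), and without stimulated replicate 1 9 fell. Kcnj2, an inward rectifier that passed the filter through the control group alone, went from 5.35, 5.74 and 10.7 to 0.172, 0.159 and 0.833 CPM.

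Guidance genes were more often lower than higher. Of 51 semaphorins, plexins, ephrins and other guidance genes 18 fell and 3 rose (median -0.40), and 11 fell without control replicate 2 or stimulated replicate 1. Plxnc1, a semaphorin receptor, went from 19.0, 13.9 and 12.4 to 1.4, 1.83 and 1.5 CPM, and its ligand gene Sema7a rose from 29.1, 19.4 and 13.9 to 174, 93.6 and 88.9 CPM. Of 18 tubulin and other microtubule genes 5 rose (27.8%) and none fell. Of 38 actin regulators 8 rose (21.1%) and 3 fell (7.89%), against 13.2 and 12.4% of all genes. Only 1 actin rise was left without control replicate 1 or 3 or stimulated replicate 1. Tuba1c was higher by 1.39 and Srf, the transcription factor of actin and muscle genes, by 0.99.

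Large families differed in how often they were called, against the 13.2% of all genes that rose and the 12.4% that fell. Of 324 tested zinc finger genes named Zfp 15 rose (4.63%) and 11 fell (3.40%). Of 149 ubiquitin ligases named Rnf, Trim or Fbx 14 rose (9.4%) and 16 fell (10.7%; median -0.01). Of 31 lysosome and autophagy genes 1, the lysosomal regulator Tfeb (0.46), rose and 1 fell. The Tfeb call held in only 3 of 17 alternatives. Among 182 solute carriers 28 rose (15.4%) and 26 fell (14.3%), near the shares of all genes, with a median of 0.01. Without control replicate 1, 2 or 3 or stimulated replicate 1 fewer of each family rose, down to 1 Zfp gene, 6 ubiquitin ligases and 8 solute carriers. Slc20a1, a phosphate importer, went from 87.0, 87.9 and 76.3 to 298, 262 and 273 CPM, and the glutamate transporter gene Slc1a3 from 6.49, 7.63 and 16.9 to 0.491, 1.30 and 1.26 CPM. When genes were grouped by the letters before the first digit of the symbol, 118 families had at least 12 tested genes, and their median share called was 23.2%. In 12 of them at least 50% were called. The aldehyde dehydrogenases (Aldh) led with 64.7% (2 higher, 9 lower of 17), ahead of integrin α subunits (Itga, 58.3%). The dual-specificity phosphatases (Dusp, 52.6%) were mostly higher, 9 against 1 of 19. Dusp5, which acts on ERK, rose from 15.9, 19.5 and 11.8 to 66.3, 76.9 and 59.2 CPM.

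In some lists the libraries differed more within groups than between them. None of 30 mitosis genes was called by edgeR (1 at an unadjusted p under 0.05, and 1 called by DESeq2), although all 30 lay below 0 (median -0.81). Their median member was at 0.25, 0.75 and -0.99 in control replicates 1 to 3 and at -0.50, 0.03 and -2.12 in the stimulated replicates, with replicate 3 lowest in each group. None of 33 DNA replication genes was called by edgeR (median -0.09), with 3 at an unadjusted p under 0.05 and 2 called by DESeq2, 1 in each direction. With the replicate block in the edgeR fit 24 mitosis genes fell, and 3 replication genes rose and 8 fell. Of 34 interferon-stimulated genes 2 fell by edgeR, Ifit2 (-2.20) and Gbp2 (-1.79), and 5 by DESeq2, and none rose. The list median was -0.79, and -2.15 to 0.29 without 1 library at a time. The median member was at -0.54, -0.62 and 1.22 in control and at 0.46, -1.70 and -1.20 after stimulation. Control replicate 3, where this list was highest, also held the most leukocyte marker reads (224 CPM in sum). The stimulated libraries were ordered otherwise. There the list was highest in replicate 1, with 63.4 CPM of these markers, and at -1.20 in replicate 3, which held the most (158 CPM). The part of leukocyte reads in the result was not tested. Among the 5 largest changes that edgeR did not call were 3 genes induced by interferons, Ifit3 (-3.07), Gbp9 (-3.06) and Slfn5 (-2.69), all of which passed with DESeq2 and with all 12 libraries in the fit. The proliferation marker Mki67 (-1.27, adjusted p = 0.176) was not called by edgeR without the replicate block, and was called with it.

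At the other edge of the test, the smallest changes called were those of Strn4 (0.24), Trappc13 (0.25) and Sfpq (0.26), with adjusted p from edgeR of 0.0492, 0.0463 and 0.0478. The response was also compared with that of the Nox4 KO fibroblasts. By edgeR's genotype-by-stimulation term over all 12 libraries, no gene passed an adjusted p of 0.05 (smallest adjusted p = 0.869), and 312 genes (2.62%) had an unadjusted p under 0.05. No other tool was run on this term, and the count does not show that the responses were alike.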

How the data were processed

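RNA from primary WT fibroblasts was sequenced as single-end TruSeq libraries. Per the submitters' processing notes and the study's methods, CASAVA 1.8.2, STAR 2.4 and featureCounts 1.4.6 were used, reads mapping to several places were discarded and reads were counted over the merged exons of protein-coding isoforms. Whether strand was used is not given in the sources used here, so overlapping and antisense genes cannot be told apart. The values deposited by the authors are raw counts per gene.

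From these, CPM (count over library total) and RPKM (merged exon length, GENCODE M21, GRCm38) were computed. Genes with a mean of at least 1 CPM in WT control or WT TGF-β2 were tested with edgeR 4.0.16 (R 4.3.3; TMM factors 0.9429 to 1.064; quasi-likelihood test, 3 against 3 libraries, no covariate). P-values were Benjamini-Hochberg adjusted over 11899 genes and a call is an adjusted p under 0.05. SE is the log2 fold change divided by the square root of F. An exact permutation of 3 against 3 cannot go below p = 0.1, so single genes were not permuted. The pipeline was tested on simulated data. Replicates of a group were not copies, with a chi-square per gene of 14.4 to 147 between them.

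Gene lists, families and members were chosen with earlier results of these data known, and lists are therefore described by counts and medians without a test. Named genes are, in each list, up to 3 rises and 3 falls of largest log2 fold change among called genes without overlap, the 15 called genes with the largest CPM gain and the 15 with the largest loss, a set of TGF-β and fibroblast genes given whatever their values, the 5 smallest calls and the 5 largest changes not called, and the largest change each way in symbol families with at least 50% called. Genes shown for their promoters fall outside this rule. Of the list entries, Cebpd and Cct6a matched no gene. Mitochondrially encoded genes were not analysed here, and some genes that the rule names are not reported here. The alternatives were upper-quartile, RLE and library-size scaling, DESeq2 1.42.0, edgeR's legacy quasi-likelihood fit, other filters, all 12 libraries in the fit, the replicate block and leaving out each library.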

Additional observations from a re-analysis of the deposited data

How the results depend on the processing

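The genes higher numbered 972 with library totals instead of TMM, and 613 to 1819 without 1 library at a time, while the genes lower numbered 850 to 1895. Control replicates 1, 2 and 3 and stimulated replicate 1 each moved a count by over 1.5 times when left out: 613, 737, 663 and 613 genes were then higher, and 979, 917, 1019 and 850 lower. In the same fits 14.7 to 25.7% of the lowest and 13.3 to 39.2% of the highest quintile were called. Without a filter on level (16828 genes) 0.802% of the lowest quintile was called, since that quintile then held genes of almost no reads. The counts at 2-fold or more stayed within 1.5 times in the alternatives run, at 285 to 386 higher and 584 to 771 lower without 1 library at a time.

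Of 379 named genes, none of the 353 that were called changed sign in an alternative that tested it, and 11 of the 26 that were not called did; 370 kept their side of the threshold with DESeq2, 347 with library totals and 269 without stimulated replicate 1. The replicate numbers were not taken as pairs, since nothing in the labels ties them and the deviations of same-numbered libraries correlated at 0.0724, 0.423 and 0.529, 1 of them under 0.1. Each stimulated library did correlate best with its own number, whereas control 1 correlated best with stimulated replicate 2 (0.315), which is a hint from the data and not the design. With the replicate block 1837 genes were higher and 2037 lower, among them 24 of the 30 mitosis genes, of which edgeR called none and DESeq2 1 without it. The cause of these shifts was not tested, and how far depth limits the low genes was not tested.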

Other observations

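Further groups moved in part, to be read against the 13.2% of all genes that rose and the 12.4% that fell. Of 39 NRF2 and glutathione genes 2 rose and 10 fell (median -0.19), and 6 fell without control replicate 2 or 3 or stimulated replicate 1. The glutathione transferase genes Gstt1, Mgst1 and Gsta4 fell by 2.41, 2.19 and 1.97 on the log2 scale, whereas Hmox1, the haem oxygenase, was not called (0.01). Mgst1 was at 37.4, 32.6 and 81.3 CPM in control and at 7.51, 11.6 and 11.9 CPM after TGF-β2, with control replicate 3 the highest and no overlap.

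Of 31 metalloproteinases and inhibitors 5 rose (16.1%) and 9 fell (29%), against 13.2 and 12.4% of all genes. Without 1 library at a time 2 to 6 rose and 8 to 10 fell. Mmp9, a gelatinase, went from 4.67, 5.48 and 3.79 to 52.6, 56.3 and 52.1 CPM, and the aggrecanase gene Adamts5 from 339, 408 and 733 to 31.6, 31.7 and 57.4 CPM. Of 11 tested Hedgehog genes 4 fell and 1 rose, and the transcription factor gene Gli2 went from 25.2, 30.7 and 43.7 to 4.91, 6.89 and 9.08 CPM. Of 14 Notch genes 4 rose and 2 fell, with the ligand gene Jag1 higher by 2.06 and the receptor gene Notch3 lower by 1.99. Of 13 prostanoid genes 3 rose and 5 fell: the synthase gene Ptgs2 was higher by 2.01, and the receptor genes Ptgfr, Ptgir and Ptger4 were lower by 3.93, 2.78 and 1.56 on the log2 scale.

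Ccnd1, the cyclin of early G1, fell from 129, 152 and 210 to 30.3, 31.5 and 35.9 CPM.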
